A study of Mus musculus with 8 samples.

Results

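The chemokine and interleukin genes of sorted mouse mammary luminal cells are described here, together with their receptors, across luminal progenitors (LP) and mature luminal cells. The members were taken by gene symbol, namely symbols that start with Cxcl, Ccl, Cxcr or Ackr, or with Ccr or Il and a digit, and in addition Cx3cl1, Csf1, Csf2, Csf3, Lif and Tslp. The rule used no expression value. It matched 148 of the 24594 genes listed in the count table, of which 34 had no count in any library, which left 114 members.

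Cells came from the mammary gland of untreated wild-type C57BL/6J mice, and the study used mice aged between 12 and 20 weeks. Glands were dissociated with collagenase, hyaluronidase, trypsin and dispase, blood and endothelial cells were marked by CD45, CD31 and TER-119, and LP and mature cells were sorted by FACS. The labels name EpCAM, CD49f, cKit and CD14 as the sort markers, while the paper describes the split for RNA sequencing by c-Kit, high in LP and low in mature cells. No transgene or Cre driver is named for these mice. The paper's methods state biological replicates, but fewer per condition than the 4 libraries per fraction, all of which were used here. The labels do not say whether the 4 LP and 4 mature libraries came from separate animals or pools. The p-values thus measure only the spread between these libraries. The LP and mature libraries of a replicate number carry a shared sample number in the count table, and what it stands for is not stated. Each library was made from 500 pg of RNA by cDNA amplification.

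Chemokines are small secreted proteins that direct the migration of leukocytes through receptors coupled to G proteins, and they are grouped by the spacing of their first cysteines into CXC, CC and CX3C classes. Atypical chemokine receptors bind chemokines without classical G protein signalling and clear them. Many interleukins and some colony-stimulating factors act through receptors built from a ligand-specific chain and a chain shared by several cytokines. Most of these receptors signal through JAK and STAT proteins, while the receptors for IL-1, IL-18 and IL-33 signal through MYD88. In the mammary gland, macrophages and eosinophils recruited by such factors are known to take part in the growth of the ducts, and the epithelium is a known source of some of these signals.

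Library totals lay between 4410049 and 7791593 counts. Kit and Cd14, which encode sort markers, and Elf5, a marker of LP, were higher in LP (log2 fold changes of 2.96, 6.25 and 2.02, adjusted p = 0.00143, 0.000104 and 0.00524, edgeR quasi-likelihood test), and each was higher in every LP library than in any mature library. Mature replicate 3 stood apart from the other mature libraries, with the highest Kit (179 CPM against 41.2 to 73.5) and a summed level of 18 handling and heat shock genes of 29393 CPM against 8673 to 9576. In LP the same sum was 3271 to 4183 CPM, and 11 of the 17 handling genes tested were higher in mature cells and 1 in LP, among them Hspa1b (log2 fold change -4.38), Hspa1a (-4.31), Dnajb1 (-3.74) and Atf3 (-3.12). The share called at an adjusted p of 0.05 was 70.6% of the tested handling genes. Over all tested genes it was 24.7%, with 13.8% toward mature cells. Of 25 leukocyte markers 17 had a count, and their sum was 9.49 to 11.8 CPM in LP and 6.21 to 16.0 CPM in mature cells, with 3 counts in all for the defining marker Ptprc. The fibroblast marker sum was 7.49 to 41.7 CPM in LP and 27.1 to 179 CPM in mature cells, in which Dcn reached 154 CPM, while Col1a1 had 32 counts in all. Basal markers summed to 4.02 to 18.8 CPM in LP and 10.2 to 55.6 CPM in mature cells, where the highest value was mature replicate 3, and Krt5 had 23 counts in all. Endothelial markers summed to 6.66 to 12.8 CPM in LP and 12.9 to 48.1 CPM in mature cells. Of the 3 endothelial markers tested, 1 was called, higher in mature cells, where 24.7% of all tested genes were called, and Vwf had a log2 fold change of -3.39. Of the 4 fibroblast and 4 basal markers tested, 0 were called, with median log2 fold changes of -1.02 and -1.66. The adipocyte sum was at most 0.433 CPM. The part of handling and of other cell types in the differences below was not tested, and fewer cells of a type cannot be told apart from less RNA per cell in such bulk libraries.

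Most members were low. Of the 114, 58 passed the filter on low counts and 56 did not. Those 56 had between 1 and 205 counts over all 8 libraries with a median of 13, and 23 of them had fewer than 10. A count of 0 in a library allows up to 3 counts, or 0.416 to 0.498 CPM in LP and 0.422 to 0.788 CPM in mature cells, which covers counting error only. CPM here are counts scaled to a common library size with TMM factors. The filter passes a gene that is high in either fraction, so the 58 are not a sample of all members.

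Of the 58 tested members, 19 passed an adjusted p of 0.05 (edgeR quasi-likelihood test over all 12816 tested genes), 9 with more counts in LP and 10 with more in mature cells. That is 32.8% of the tested members, where 24.7% of all tested genes passed, 10.9% in the direction of LP and 13.8% in the direction of mature cells. The median log2 fold change of LP over mature was -0.15 over the tested members and -2.85e-05 over all tested genes, and the median size of the change was 0.91 against 0.55. The libraries of the fractions did not overlap for 19 members, 9 with every LP library above every mature one and 10 the other way, where 29.5% of all tested genes did not overlap, 14% and 15.5% by direction. Of the called members Il6ra overlapped, and Il1rapl1, higher in every mature library (6.04 to 8.66 CPM) than in any LP library (3.05 to 4.15 CPM), was not called (adjusted p = 0.134). An absolute log2 fold change above 1 together with the adjusted p was met by 17 members, where 16.1% of all tested genes met it. Without mature replicate 3 the count of called members was again 19, and 17 of these were called with all libraries.

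**Figure D1:**
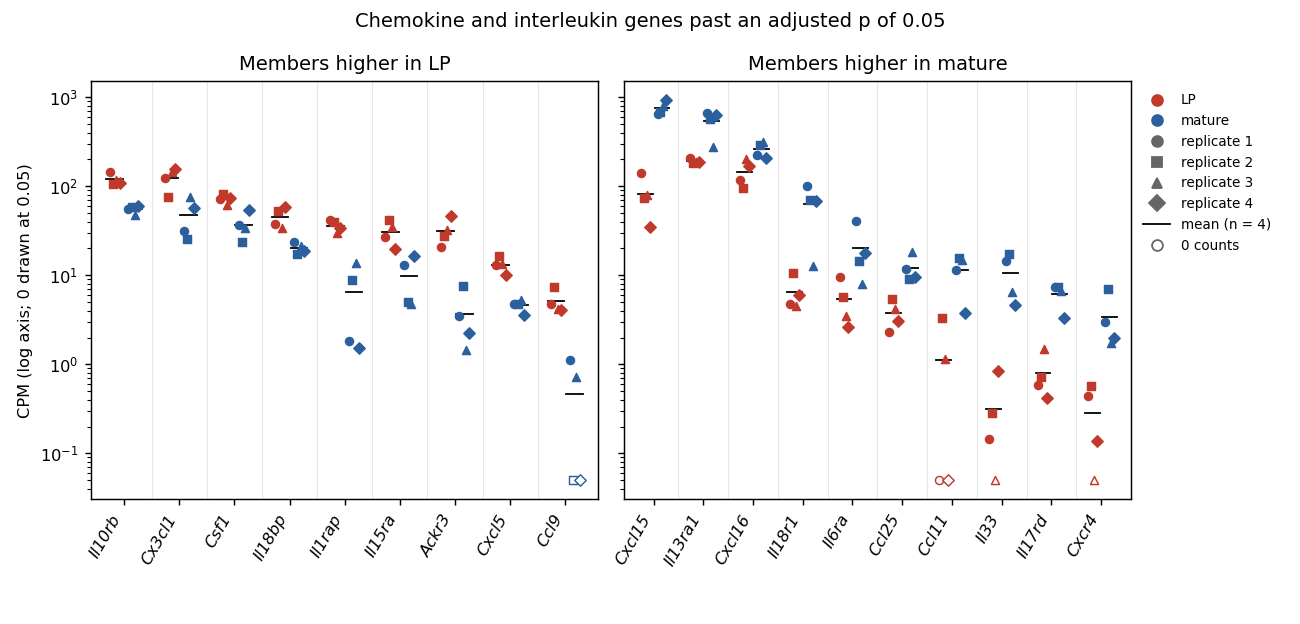
CPM on a log axis for the 19 members past an adjusted p of 0.05, the 9 LP-high genes on the left and the 10 mature-high genes on the right. Each point is a library, its shape gives the replicate number, black lines are means of 4, and open points at 0.05 are libraries with 0 counts. The fractions are separated in every gene shown except Il6ra, where LP replicate 1 lies above mature replicate 3.

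By role, 3 of 8 tested CXC ligands, 4 of 11 CC and CX3C ligands, 2 of 4 chemokine receptors, 2 of 12 interleukins and colony-stimulating factors and 8 of 23 interleukin receptor chains and binding proteins were called. In the same order that is 37.5%, 36.4%, 50%, 16.7% and 34.8% of the tested genes, beside 24.7% of all tested genes. These shares rest on 4 to 23 tested genes a role. Each role held genes of both directions. The plot of all tested members shows called ligands and called receptors on both sides.

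**Figure D2:**
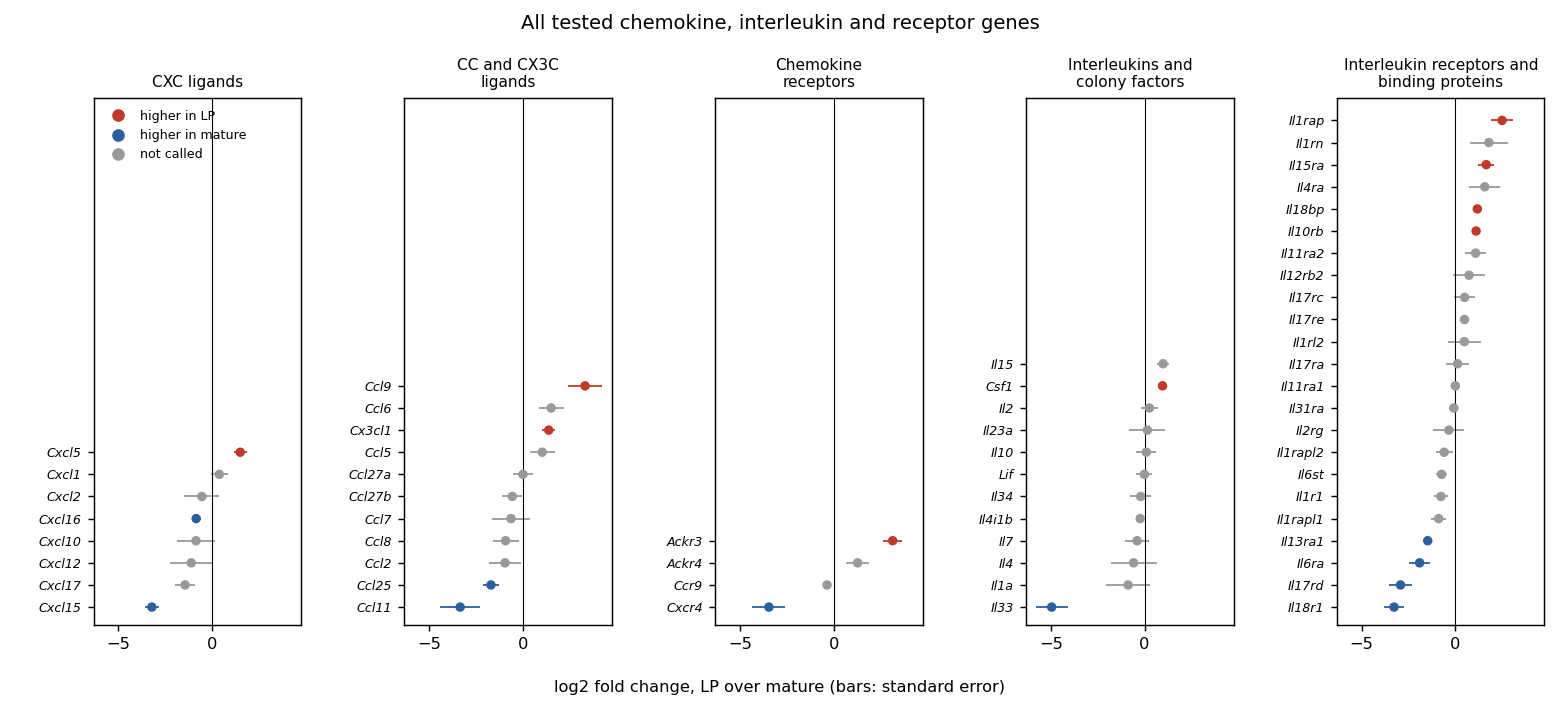
Log2 fold change of LP over mature with its standard error for the 58 tested members, in a panel for each role and sorted within it. Red points are LP-high, blue points mature-high and grey points not called at an adjusted p of 0.05, and called genes lie on both sides of 0 in all 5 panels.

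Cxcl15 was the member with the highest level in mature cells. It encodes a neutrophil-attracting chemokine known from lung epithelium, and lies at chr5:90794534-90803067 of mm10 (Entrez Gene 20309), among other CXC ligand genes. Its CPM were 142, 73.6, 79.5 and 35.1 in LP replicates 1 to 4 and 646, 678, 789 and 926 in mature replicates 1 to 4. Every mature library was above every LP library, by at least the gap between 142 and 646 CPM. The log2 fold change was -3.20 ± 0.37 (SE, n = 4 and 4, adjusted p = 0.000432, edgeR quasi-likelihood test), or 9.20-fold higher in mature cells. Per kb of exon, a scale on which genes can be compared, Cxcl15 stood at 357 ± 59.5 CPM per kb (SD, n = 4) in mature cells, above Il13ra1 at 144 ± 47.5 as the next member. In LP it stood at 38.8 ± 20.8 CPM per kb, below Il11ra1 at 82.9 ± 8.86, Il10rb at 64.5 ± 9.63, Cxcl16 at 53.8 ± 17.7 and Il13ra1 at 51.6 ± 2.72. It made up 62.0% to 74.7% of the summed CPM of the 13 CXC ligands in mature libraries and 13.3% to 40.7% in LP libraries.

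None of the tested neighbours of Cxcl15 was called higher in mature cells. On chromosome 5 the order is Cxcl5, Cxcl3, Cxcl15, Cxcl1 and Cxcl2, and Cxcl1, Cxcl2, Cxcl3 and Cxcl5 all encode neutrophil attractants that act through CXCR2. NF-kB is the transcription factor best known for inducing Cxcl1 and Cxcl2, so the 160 bases before the transcription start are shown for 4 of these genes and for Csf1, from RefSeq on GRCm38.p6 and 5′ to 3′ on the strand of the gene. Capitals mark GGGA, any base and TTTCC, a 10-base form of the NF-kB motif, or the same motif on the opposite strand. They show an identical match in Cxcl1, Cxcl2 and Cxcl3, none in Cxcl15, and an opposite-strand match in Csf1. The stretches lie at chr5:90891085-90891244 on the plus strand for Cxcl1, chr5:90903739-90903898 on the plus strand for Cxcl2, chr5:90785941-90786100 on the plus strand for Cxcl3, chr5:90794374-90794533 on the plus strand for Cxcl15 and chr3:107760470-107760629 on the minus strand for Csf1.
Cxcl1: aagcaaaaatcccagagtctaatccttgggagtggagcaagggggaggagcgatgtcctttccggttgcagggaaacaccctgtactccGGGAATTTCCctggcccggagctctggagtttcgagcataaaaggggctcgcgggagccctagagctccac
Cxcl2: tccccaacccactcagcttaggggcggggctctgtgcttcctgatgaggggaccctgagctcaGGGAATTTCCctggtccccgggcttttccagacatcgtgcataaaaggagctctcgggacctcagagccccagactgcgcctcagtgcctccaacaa
Cxcl3: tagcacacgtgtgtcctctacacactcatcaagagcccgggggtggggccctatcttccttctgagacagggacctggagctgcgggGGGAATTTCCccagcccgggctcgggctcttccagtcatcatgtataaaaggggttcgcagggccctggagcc
Cxcl15: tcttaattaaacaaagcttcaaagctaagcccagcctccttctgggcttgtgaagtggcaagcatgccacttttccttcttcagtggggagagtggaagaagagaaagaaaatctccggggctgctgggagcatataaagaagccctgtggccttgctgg
Csf1: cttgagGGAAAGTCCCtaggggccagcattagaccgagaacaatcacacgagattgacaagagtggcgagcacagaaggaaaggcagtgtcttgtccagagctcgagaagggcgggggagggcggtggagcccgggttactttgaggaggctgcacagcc

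The match starts 71 bases before the start of Cxcl1, 97 before that of Cxcl2, 73 before that of Cxcl3 and 154 before that of Csf1. RefSeq promoter windows of 300 bases, from 250 before to 50 after the start, were at hand for 86 of the 114 members, and 6 of these genes held the motif on either strand, which is 6.98%. The other 2 were Il6 and Il16. Of all 27025 genes with such windows 126 held it, or 0.466%, and of the tested genes 0.541%. Among the called members it was present in 1 of 7 genes higher in LP, Csf1, and in 0 of 8 higher in mature cells. No window was at hand for Cxcl5.

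Cxcl5 was higher in LP, in the opposite direction to Cxcl15. Its CPM were 13.1, 16.4, 13.3 and 9.99 in LP and 4.78, 4.73, 5.34 and 3.62 in mature cells. The values were tight within each fraction and did not overlap. On the log2 scale the difference was 1.51 ± 0.35 (SE, adjusted p = 0.0107, edgeR quasi-likelihood test).

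Cxcl1 overlapped between the fractions. Its CPM were 31.7, 19.4, 17.6 and 20.5 in LP and 7.45, 7.88, 19.6 and 32.4 in mature cells, a log2 difference of 0.40 ± 0.46 that was not called (adjusted p = 0.572, edgeR quasi-likelihood test). The mature libraries ranged more widely than the LP libraries did. Cxcl2 ranged from 0.139 to 3.34 CPM in LP and from 0.603 to 4.73 CPM in mature cells and was not called either, and 5.78% of its 51-base windows match another gene, Cxcl3. Cxcl3 had 33 counts in all. The receptor gene Cxcr2 had 1 count over all libraries and Cxcr1 had none, so expression of these receptors was at the limit of this depth or below it.

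**Figure D3:**
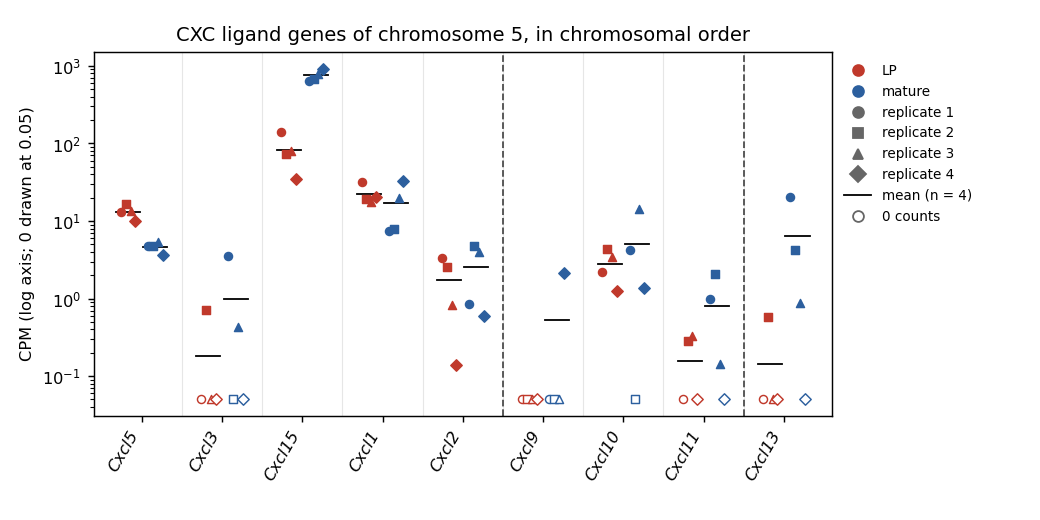
CPM on a log axis for the CXC ligand genes of chromosome 5 in chromosomal order, with dashed lines between 3 separate groups of neighbours. Points are libraries, black lines are means of 4 and open points at 0.05 are libraries with 0 counts. Cxcl5 is higher in LP, Cxcl15 is higher in mature cells and all the others overlap between the fractions.

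The interferon-induced ligands Cxcl9, Cxcl10 and Cxcl11, which attract T cells, were low. Cxcl10 ranged from 1.25 to 4.31 CPM in LP and from 0 to 14.4 CPM in mature cells and was not called (log2 difference -0.85 ± 1.02, adjusted p = 0.584, edgeR quasi-likelihood test). Cxcl9 and Cxcl11 had 14 and 20 counts in all. Their receptor gene Cxcr3 had no count.

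Cxcl16 encodes a chemokine that is made as a membrane protein, is cut loose by the protease ADAM10 and acts on CXCR6. Its CPM were 118, 95.0, 201 and 167 in LP and 225, 291, 316 and 208 in mature cells. The fractions were close, with LP replicate 3 at 201 CPM just under mature replicate 4 at 208 CPM. The fitted log2 fold change was -0.84 ± 0.25 (SE, adjusted p = 0.0295, edgeR quasi-likelihood test). The call was lost without LP replicate 1 (adjusted p = 0.0896), LP replicate 2 (0.0773), mature replicate 2 (0.0780) or mature replicate 3 (0.0697), and with no filter on low counts (0.0537). The exons of Zmynd15 on the opposite strand cover 20.5% of its exon bases, and Zmynd15 itself averaged 49.3 CPM in LP and 89.8 CPM in mature cells. The counting is not stated to use strand, so reads from the shared bases cannot be told apart and the part of Zmynd15 in the Cxcl16 difference was not tested. Adam10 was higher in mature cells as well (log2 fold change -1.48, adjusted p = 0.000859, edgeR quasi-likelihood test), and Cxcr6 had no count.

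Cxcl17, a chemokine of mucosal surfaces, was not called with all libraries. Its CPM were 38.0, 22.4, 15.3 and 28.2 in LP and 115, 93.0, 12.7 and 59.8 in mature cells. Mature replicate 3 lay below every LP library, while the other mature libraries lay above all of them. The log2 difference was -1.43 ± 0.53 (adjusted p = 0.0759, edgeR quasi-likelihood test), and without mature replicate 3 it was -1.75 (adjusted p = 0.00351). DESeq2 and the likelihood ratio test of edgeR also called it with all libraries.

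The ligands of CXCR4 and CXCR5 were scarce. Cxcl12, the homing signal read by CXCR4 and cleared by ACKR3, ranged from 0 to 5.89 CPM in LP and from 1.27 to 7.88 CPM in mature cells and was not called (adjusted p = 0.524, edgeR quasi-likelihood test). Cxcl13, which attracts B cells through CXCR5, was not tested, with 0, 0.575, 0 and 0 CPM in LP and 20.4, 4.2, 0.866 and 0 CPM in mature cells.

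Among the CC and CX3C ligands, Cx3cl1 had the most counts. It encodes fractalkine, the only CX3C chemokine, which is anchored in the membrane and acts on CX3CR1. Its CPM were 122, 75.8, 144 and 155 in LP and 31.2, 25.5, 75.5 and 57.3 in mature cells. The lowest LP library, replicate 2, and the highest mature library, replicate 3, were nearly equal. The change on the log2 scale was 1.39 ± 0.35 (SE, adjusted p = 0.0149, edgeR quasi-likelihood test). Its receptor gene Cx3cr1, which lies outside the naming rule, ranged from 48.6 to 103 CPM in LP and from 47.8 to 98.4 CPM in mature cells and was not called (adjusted p = 0.668).

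Ccl9, a ligand of CCR1 that attracts myeloid cells, had 4.79, 7.48, 4.15 and 4.02 CPM in LP and 1.12, 0, 0.722 and 0 CPM in mature cells. Every LP library was above every mature one, though at few counts. The log2 fold change was 3.32 ± 0.92 (SE, adjusted p = 0.0232, edgeR quasi-likelihood test), and the call was lost without LP replicate 1 (adjusted p = 0.0548) or LP replicate 2 (0.0724). Ccl6, its neighbour on chromosome 11, ranged from 3.19 to 26.6 CPM in LP and from 1.58 to 8.08 CPM in mature cells, a log2 difference of 1.51 ± 0.67 that was not called (adjusted p = 0.124). Their receptor gene Ccr1 had 1 count.

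Ccl25 was higher in mature cells. It encodes the thymus and gut chemokine that acts on CCR9. Its CPM were 2.32, 5.46, 4.15 and 3.05 in LP and 11.8, 9.19, 18.2 and 9.49 in mature cells, without overlap, and the log2 fold change was -1.70 ± 0.43 (SE, adjusted p = 0.0164, edgeR quasi-likelihood test). The exons of Elavl1 on the opposite strand cover 3.60% of the Ccl25 exon bases. Elavl1 averaged 145 CPM in LP and 171 CPM in mature cells, and its part in the Ccl25 difference was not tested. The receptor gene of CCL25, Ccr9, had the most counts among the chemokine receptors of the naming rule. Its CPM were 62.9, 72.7, 48.0 and 44.5 in LP and 55.4, 77.5, 96.0 and 62.8 in mature cells. The fractions overlapped and Ccr9 was not called (log2 difference -0.35 ± 0.23, adjusted p = 0.285), and 20.04% of its 51-base windows occur in other annotated transcripts, so its level is uncertain.

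Ccl11 encodes eotaxin, which attracts eosinophils through CCR3. Its CPM were 0, 3.31, 1.16 and 0 in LP and 11.5, 15.8, 14.9 and 3.77 in mature cells. Mature replicate 4 was close to LP replicate 2, the highest of the LP libraries. The Ccl11 log2 fold change was -3.34 ± 1.08 (SE, adjusted p = 0.0443, edgeR quasi-likelihood test), the weakest call among the members. It was lost without LP replicate 1 (adjusted p = 0.0767), LP replicate 3 (0.0945), LP replicate 4 (0.0747), mature replicate 1 (0.0771), mature replicate 2 (0.0965) or mature replicate 3 (0.0761), and with no filter (0.0589). Beside it, the fibroblast marker sums were 41.7, 30.6, 27.6 and 7.49 CPM in LP and 138, 179, 28.3 and 27.1 CPM in mature cells, and their part in the Ccl11 difference was not tested. Its neighbours Ccl2, Ccl7 and Ccl8, which attract monocytes, were not called, with log2 differences of -0.95, -0.63 and -0.92, though Ccl2 was called without LP replicate 2 (log2 fold change -2.58, adjusted p = 0.0446). Ccr3 and Ccr2 had no count.

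Ccl5, which attracts T cells and monocytes, was not called. It ranged from 3.19 to 15.1 CPM in LP and from 0.844 to 7.88 CPM in mature cells, with a log2 difference of 1.04 ± 0.66 (adjusted p = 0.280, edgeR quasi-likelihood test). Ccl27a and Ccl27b cannot be told apart from each other and from further copies, since 44.5% and 98.1% of their 51-base windows occur in other transcripts. Of the other CC ligands, 10 did not pass the filter, and Ccl21a, Ccl21b, Ccl21c, Ccl21d and Ccl26 had no count.

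The receptors of CXCL12 differed between the fractions in opposite directions. Ackr3, the atypical receptor that binds and removes CXCL12, had 20.9, 27.6, 32.5 and 45.8 CPM in LP and 3.52, 7.62, 1.44 and 2.26 CPM in mature cells. Every LP library was well above every mature library, and the log2 fold change was 3.15 ± 0.50 (SE, adjusted p = 0.00169, edgeR quasi-likelihood test), or 8.85-fold higher in LP. Cxcr4, the signalling receptor of CXCL12, had 0.436, 0.575, 0 and 0.139 CPM in LP and 2.95, 7.09, 1.73 and 1.96 CPM in mature cells. It rested on 81 counts in all, and its log2 fold change was -3.45 ± 0.88 (SE, adjusted p = 0.0163), a call that was lost without LP replicate 4 (adjusted p = 0.0579) or mature replicate 2 (0.0576). Per kb of exon, Ackr3 stood at 10.3 CPM per kb in LP and 1.21 in mature cells, and Cxcr4 at 0.159 in LP and 1.90 in mature cells. Ackr4, the atypical receptor that clears CCL19, CCL21 and CCL25, was not called (log2 difference 1.28 ± 0.60, adjusted p = 0.145).

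The other chemokine receptors that are typical of leukocytes were at or near 0. Cxcr5 had 24 counts, Ccr7 11, Ccr10 4, and Ccr1, Ccr6 and Cxcr2 1 each. Ackr2, Ccr2, Ccr3, Ccr8, Cxcr1, Cxcr3 and Cxcr6 were among those with no count in any library.

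Of the interleukins and colony-stimulating factors, 12 of 29 passed the filter and 2 were called, where Csf1 was higher in LP and Il33 in mature cells. Csf1 encodes the growth factor that maintains macrophages. Its CPM were 72.7, 81.7, 61.3 and 73.4 in LP and 37.1, 23.6, 33.9 and 53.6 in mature cells. The fractions did not overlap, and the log2 fold change was 0.96 ± 0.24 (SE, adjusted p = 0.0145, edgeR quasi-likelihood test), or 1.94-fold higher in LP. Il34, which encodes the other ligand of the same receptor, ranged from 1.83 to 4.17 CPM in LP and from 2.26 to 6.21 CPM in mature cells and was not called. The receptor gene Csf1r, outside the naming rule and also a leukocyte marker, ranged from 2.91 to 7.47 CPM in LP and from 3.18 to 4.92 CPM in mature cells and was not called (adjusted p = 0.792).

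Il33 encodes an alarmin that is held in the nucleus and released from damaged cells. Its CPM were 0.145, 0.288, 0 and 0.832 in LP and 14.3, 17.3, 6.50 and 4.67 in mature cells. All mature libraries were above all LP libraries, and LP replicates 1, 2 and 3 were at or below the level of 3 counts. This gave a log2 fold change of -4.96 ± 0.85 (SE, adjusted p = 0.00249, edgeR quasi-likelihood test), the largest in size among the called members. The fibroblast marker sums were 41.7, 30.6, 27.6 and 7.49 CPM in LP and 138, 179, 28.3 and 27.1 CPM in mature cells. Their part in the Il33 difference was not tested. The gene for the specific receptor chain of IL-33, Il1rl1 (ST2), did not pass the filter, with 0, 3.59, 0 and 0 CPM in LP and 19.3, 0, 6.21 and 0 CPM in mature cells.

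Il15 and Lif were not called. Il15, which supports natural killer cells, had 17.0, 19.0, 17.9 and 10.1 CPM in LP and 10.8, 6.83, 6.64 and 7.84 CPM in mature cells. LP replicate 4 fell just below mature replicate 1, and the log2 difference of 0.99 ± 0.34 missed the threshold (adjusted p = 0.0545, edgeR quasi-likelihood test), while DESeq2, the likelihood ratio test, upper-quartile factors and the filter of 10 counts in every library called it. It also passed without LP replicate 4 (adjusted p = 0.0413) or mature replicate 1 (0.0446). Lif, a cytokine of the IL-6 family, had 24.4, 17.7, 4.98 and 17.8 CPM in LP and 21.8, 16.3, 12.3 and 14.9 CPM in mature cells, with a log2 difference of -0.01 ± 0.43 whose sign changes with the scaling. Il4i1b had 32.9 to 53.0 CPM in LP and 43.3 to 58.1 CPM in mature cells and was not called. It spans Nup62 in the annotation, so its reads cannot be told apart from those of Nup62, and like Il4i1 it is named for an enzyme and not a cytokine.

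Many of the classical inflammatory and T cell cytokines were scarce, but not all. Il6 had 25 counts in all, Il1b 2, Csf2 1 and Il12a 1, and Il13, Il5, Il17a, Il22, Il21 and Il9 had none. Il2 had 250 counts, with 4.36 to 6.52 CPM in LP and 2.71 to 6.79 CPM in mature cells. Il23a had 168 counts, Il4 80, Il10 73 and Il1a 62, and Tnf, outside the naming rule, had 265. Il2, Il23a, Il4, Il10, Il1a and Tnf were tested and not called. Csf3, the neutrophil growth factor, was not tested, with 3.92, 3.74, 1.16 and 0 CPM in LP and 8.86, 1.05, 0.289 and 0.452 CPM in mature cells. Il16, a ligand of CD4, had 2.18, 3.02, 3.82 and 0.416 CPM in LP and 0.422, 0.788, 0.289 and 1.05 CPM in mature cells and was not tested, and Stard5 on the opposite strand covers 22.5% of its exon bases.

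Interleukin receptor chains and binding proteins were the largest group. Il13ra1 pairs with the chain encoded by Il4ra into the receptor through which epithelial cells respond to IL-4 and IL-13. Its CPM were 206, 183, 188 and 189 in LP and 665, 572, 275 and 623 in mature cells. Mature replicate 3 was the lowest mature library but still above all LP libraries. On the log2 scale the difference was -1.48 ± 0.25 (SE, adjusted p = 0.00236, edgeR quasi-likelihood test), and without mature replicate 3 it was -1.67. Il4ra had 11.2, 19.8, 28.2 and 22.2 CPM in LP and 15.6, 5.52, 6.21 and 0 CPM in mature cells, a log2 difference of 1.56 ± 0.84 that was not called (adjusted p = 0.202). Per kb of exon, Il13ra1 was at 51.6 CPM per kb in LP and 144 in mature cells, and Il4ra at 3.87 and 1.30. Il13ra2, the decoy for IL-13, had 13 counts.

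Il10rb encodes the chain shared by the receptors for IL-10, IL-22 and interferon lambda. Its CPM were 145, 107, 118 and 107 in LP and 55.7, 58.8, 47.4 and 60.6 in mature cells. The mature libraries spread over less than the gap between the fractions, and the log2 fold change was 1.10 ± 0.16 (SE, adjusted p = 0.00118, edgeR quasi-likelihood test). The annotated gene Gm21970 on the same strand covers 30.8% of its exon bases, and 13.8% of its 51-base windows occur in other transcripts, so part of its count is uncertain. Of its partner chains, Il10ra had 1 count and Il22ra1 5, while Ifnlr1, outside the naming rule, ranged from 13.0 to 36.0 CPM in LP and from 11.9 to 25.5 CPM in mature cells and was not called (adjusted p = 0.779).

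The IL-18 system differed at the receptor and at the binding protein, in opposite directions. Il18r1, the ligand-binding receptor chain, had 4.79, 10.5, 4.48 and 5.97 CPM in LP and 99.8, 69.3, 12.7 and 68.6 CPM in mature cells. Mature replicate 3 lay close to LP replicate 2 and the other mature libraries far above. The log2 fold change was -3.28 ± 0.55 (SE, adjusted p = 0.00236, edgeR quasi-likelihood test), or 9.68-fold higher in mature cells, and without mature replicate 3 it was -3.58. Il18bp, a secreted decoy that neutralises IL-18, had 37.3, 53.2, 33.9 and 58.1 CPM in LP and 23.6, 17.3, 21.2 and 18.8 CPM in mature cells. The fractions did not overlap and the log2 fold change was 1.17 ± 0.24 (SE, adjusted p = 0.00552). Il18 itself was not tested, with 0, 1.29, 0.332 and 0 CPM in LP and 5.34, 11.0, 0.866 and 0.151 CPM in mature cells, and the second receptor chain Il18rap had 10 counts. Casp1, which encodes the protease that activates IL-18, was higher in LP (log2 fold change 1.61, adjusted p = 0.0261), a call that was lost without LP replicate 2 (adjusted p = 0.0851), LP replicate 4 (0.0595), mature replicate 1 (0.0537) or mature replicate 4 (0.0571).

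Il1rap encodes the accessory chain of the receptors for IL-1, IL-33 and IL-36. Its CPM were 41.2, 39.4, 30.0 and 34.0 in LP and 1.83, 8.93, 13.7 and 1.51 in mature cells. The mature libraries were spread, with replicates 2 and 3 above the other two. The change on the log2 scale was 2.49 ± 0.61 (SE, adjusted p = 0.0134, edgeR quasi-likelihood test), and without mature replicate 3 it was 3.28. Gm20319 on the opposite strand covers 4.10% of its exon bases and was itself at 18.6 CPM in LP and 0.972 CPM in mature cells, and its part in the Il1rap difference was not tested. Il1r1, the signalling receptor of IL-1, had 7.41, 15.2, 12.9 and 12.9 CPM in LP and 24.9, 13.1, 14.1 and 30.6 CPM in mature cells and was not called (log2 difference -0.77 ± 0.36, adjusted p = 0.148). Il1rn, the natural antagonist of that receptor, ranged from 10.3 to 35.0 CPM in LP and from 0 to 16.5 CPM in mature cells and was not called (adjusted p = 0.227), but it was called without mature replicate 3 (log2 fold change 3.95, adjusted p = 0.0106).

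**Figure D4:**
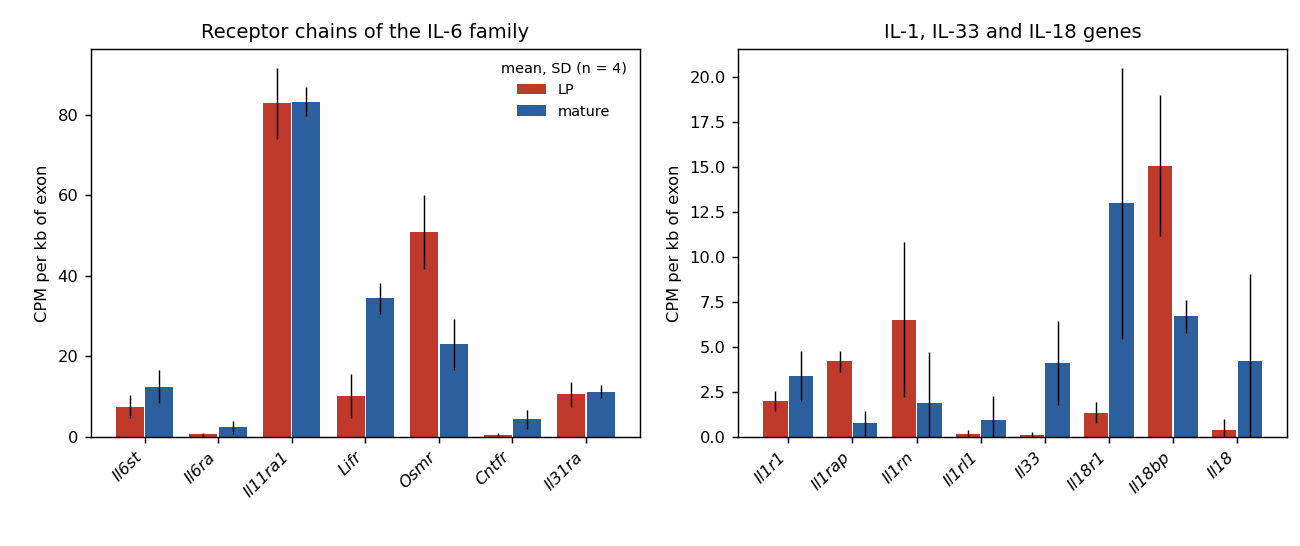
Mean CPM per kb of exon for receptor chains of the IL-6 family on the left and for genes of the IL-1, IL-33 and IL-18 systems on the right, with LP in red and mature cells in blue. Bars are means of 4 libraries and lines are SD, cut at 0. Il11ra1 is level between the fractions at 82.9 and 83.3 CPM per kb, Lifr and Osmr are unequal in opposite directions, and Il18r1 and Il18bp likewise.

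Most receptors of the IL-6 family share the signalling chain encoded by Il6st (gp130), and some of the ligand-specific chains differed between the fractions. Il6ra, the chain that binds IL-6, had 9.58, 5.75, 3.49 and 2.64 CPM in LP and 40.8, 14.4, 7.94 and 17.6 CPM in mature cells. Mature replicate 3 was below LP replicate 1, so the fractions overlapped. The LP over mature log2 fold change was -1.91 ± 0.57 (SE, adjusted p = 0.0310, edgeR quasi-likelihood test), and the call was lost without LP replicate 2 (adjusted p = 0.0717), LP replicate 3 (0.0799), LP replicate 4 (0.0812), mature replicate 1 (0.117) or mature replicate 4 (0.0515). Il6st had 83.3, 53.3, 125 and 67.1 CPM in LP and 177, 168, 122 and 79.0 CPM in mature cells and was not called with all libraries (log2 difference -0.73 ± 0.30, adjusted p = 0.104), though it was called without LP replicate 3 (adjusted p = 0.0400) or mature replicate 4 (0.0467).

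Il11ra1, the chain that binds IL-11, was level between the fractions. Its CPM were 223, 225, 177 and 207 in LP and 211, 202, 221 and 202 in mature cells, and the log2 difference was -0.01 ± 0.14 (adjusted p = 0.979, edgeR quasi-likelihood test), with a sign that changes with the scaling. Of its 51-base windows 45.8% occur in other transcripts, among them the copy Il11ra2. Il31ra, which joins OSMR to bind IL-31, had 27.9 to 51.6 CPM in LP and 35.5 to 49.4 CPM in mature cells and was not called (log2 difference -0.09 ± 0.24). Of the partner chains outside the naming rule, Lifr, the receptor of LIF, had 180, 112, 50.5 and 77.6 CPM in LP and 403, 309, 372 and 346 CPM in mature cells (log2 fold change -1.77 ± 0.33, adjusted p = 0.00368). Osmr, the receptor of oncostatin M, went the other way, with 295, 262, 221 and 341 CPM in LP and 115, 93.0, 122 and 174 CPM in mature cells (log2 fold change 1.15 ± 0.22, adjusted p = 0.00379). Cntfr was higher in mature cells at a low level (log2 fold change -3.03 ± 0.71, adjusted p = 0.0109).

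Il15ra, the chain that holds IL-15 and presents it to neighbouring cells, had 26.7, 41.4, 35.0 and 19.7 CPM in LP and 12.9, 4.99, 4.76 and 16.3 CPM in mature cells. LP replicate 4 was only just above mature replicate 4. The Il15ra log2 fold change was 1.64 ± 0.44 (SE, adjusted p = 0.0198, edgeR quasi-likelihood test), and the call was lost without LP replicate 2 (adjusted p = 0.0627). The signalling chains that IL-15 uses on lymphocytes were low, with 26 counts for Il2rb and 154 for Il2rg.

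Among the IL-17 receptors, Il17rd was the only one called. It is best known as an inhibitor of FGF signalling. Its CPM were 0.581, 0.719, 1.49 and 0.416 in LP and 7.45, 7.35, 6.64 and 3.31 in mature cells, without overlap, and the log2 fold change was -2.93 ± 0.61 (SE, adjusted p = 0.00611, edgeR quasi-likelihood test). Il17ra, the chain common to most IL-17 receptors, had 3.63, 4.46, 24.6 and 21.6 CPM in LP and 19.7, 11.0, 10.7 and 8.59 CPM in mature cells, where LP replicates 1 and 2 differed from 3 and 4 by more than the fractions did. It was not called (log2 difference 0.11 ± 0.61, adjusted p = 0.914), and neither was Il17re, the chain for IL-17C, with 26.9 to 59.4 CPM in LP and 29.2 to 39.4 CPM in mature cells. Il17rb was not tested at 41 counts, though every mature library was above every LP library, and it was called when no filter was used.

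Outside the members, 8 of 20 tested genes of a list of partner receptors and cytokines were called, 5 higher in LP and 3 in mature cells, a share of 40.0% beside the 24.7% of all tested genes. The 5 higher in LP were Osmr and the 4 chains of the receptors for interferon gamma and for type I interferons. Ifngr1 had 309, 275, 414 and 569 CPM in LP and 71.6, 70.1, 76.7 and 95.2 CPM in mature cells (log2 fold change 2.32 ± 0.24, adjusted p = 0.000298, edgeR quasi-likelihood test). Ifngr2, Ifnar1 and Ifnar2 had log2 fold changes of 0.87, 0.76 and 1.00, where the call of Ifngr2 was lost without LP replicate 3 (adjusted p = 0.0504) and that of Ifnar1 without any 1 of LP replicates 3 and 4 and mature replicates 1, 2 and 4 (adjusted p between 0.0584 and 0.0872). The 3 higher in mature cells were Lifr, Cntfr and Mif, a cytokine gene with a log2 fold change of -0.77 and no call without LP replicate 1 (adjusted p = 0.0605), LP replicate 2 (0.0610) or mature replicate 2 (0.0512).

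Of 43 tested genes for signal transduction below these receptors, 11 were called, 7 higher in LP and 4 in mature cells, a share of 25.6% that is near the 24.7% of all tested genes. Cish, a feedback inhibitor of cytokine receptors, had a log2 fold change of 2.33 ± 0.54 (adjusted p = 0.0107, edgeR quasi-likelihood test). Socs5, another feedback inhibitor, and Arrb1, which encodes an arrestin of receptor internalisation, had log2 fold changes of 1.78 and 1.53. The 4 genes higher in mature cells were the feedback inhibitors Socs3 and Socs4 (log2 fold changes of -1.12 and -1.15, adjusted p = 0.0426 and 0.0438), the IL-17 adaptor gene Traf3ip2 (adjusted p = 0.00723) and the G protein gene Gnai2 (-0.49, adjusted p = 0.0297), so feedback inhibitors were called in both directions. The calls of Socs3 and Socs4 were lost without any 1 library other than mature replicate 3 (adjusted p between 0.0520 and 0.135), and that of Gnai2 without any 1 library other than LP replicate 3 and mature replicate 3 (between 0.0664 and 0.0930). Among the genes higher in LP, the call of Myd88 was lost without any 1 library other than mature replicate 4 (adjusted p between 0.0701 and 0.106). Of 19 tested genes for the processing and clearance of these proteins and their messages, 4 were called, a share of 21.1% that is under the 24.7% of all tested genes, with Casp1 and Zfp36l2 higher in LP and Atf3 and Adam10 higher in mature cells, and Atf3 is also one of the handling genes.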

How the data were processed

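Reads of 51 bases were trimmed by the authors (cutadapt 4.2) and placed on mm10 by Bowtie2 2.3.5.1, which does not split reads across introns, and the authors deposited raw counts per gene for 8 libraries. The submitters' notes also name the build hg19. The counting program, its annotation and its use of strand are not given in the sources used here. Symbols came from RefSeq, exon lengths and overlaps from GENCODE on the same build, and counts were taken as deposited. The 4 LP libraries were set against the 4 mature libraries in edgeR 4.0.16 in R 4.3.3 (TMM, filterByExpr, quasi-likelihood F-test, two-sided, Benjamini-Hochberg adjustment over 12816 tested genes), and positive log2 fold changes mean higher in LP. The code was tested on simulated data. The members, the lists and the tests were chosen with earlier results of these data known. Genes named were the called members, the 12 highest tested members not called and the 6 highest not tested (the last tied). Also named were up to 4 called genes of each further list, receptors of ligands described and the defining markers Ptprc, Krt5 and Col1a1. The defining markers Krt14 and Pecam1 entered only the marker sums. Other genes were named after their values were seen. Alternatives were RLE and upper-quartile factors, DESeq2 1.42.0, the likelihood ratio test, other filters and thresholds, a replicate block, and each library or replicate number left out. Protein sequences were not used here.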

Additional observations from a re-analysis of the deposited data

Results flagged for a closer look

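In 5 of 74 groups of 4 libraries of the named members, the highest library stood apart from the others by Dixon's test on CPM. About 1 in 20 groups, or 3.7 of 74, would do so by chance if the values were normally distributed. A group with counts in only 1 library is always flagged, as were Il1rl1 and Cxcl13 in LP and Ccl22 in mature cells. For such groups that chance rate does not hold. Il1rl1, the receptor chain for IL-33, reached 3.59 CPM in LP replicate 2 and was at 0 in the other LP libraries. Cxcl13, the B cell chemokine, was at 0.575 CPM in LP replicate 2 and at 0 in the other LP libraries. Ccl22, a chemokine for CCR4, reached 9.49 CPM in LP replicate 2 and 2.63 CPM in mature replicate 2, against at most 0.145 CPM in the other libraries. Csf3, the neutrophil growth factor, reached 8.86 CPM in mature replicate 1 against at most 1.05 CPM in the other mature libraries. None of these genes passed the filter on low counts, and none of them was tested.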

How the results depend on the processing

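The 19 called members kept their direction in all 19 alternative fits that retained them, and Ackr3, Cxcl15, Il10rb, Il13ra1, Il18bp, Il18r1 and Il33 were called in every one of these fits. Of the 19, 13 stayed called whichever 1 library was left out. With at least 10 counts in every library, 2 CC and CX3C ligands and 1 chemokine receptor were called, since Ccl11, Ccl9, Cxcr4, Il17rd and Il33 were no longer tested, and at an adjusted p of 0.01 there were 8 called members. Leaving out a library or a replicate number gave 8 to 19 called members (4 to 10 toward LP, 4 to 10 toward mature cells), with 1 to 4 CXC ligands, 0 to 4 CC and CX3C ligands, 1 to 2 chemokine receptors, 1 to 3 interleukins and 4 to 9 receptor chains, and 5 to 10 partner, 6 to 11 signalling, 3 to 5 processing and 11 to 13 handling genes. Over all genes it gave 1615 to 3414 calls, 736 to 1668 toward LP and 879 to 1746 toward mature cells. The fewest members, 8, came without replicate 1 of both fractions, with 3 libraries a fraction.

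Among the 12 highest tested members that were not called, 5 changed sign under an alternative, and of all 39 tested members not called 17 changed sign when libraries were left out. The log2 fold change of Il11ra1 was 0.0050 with RLE factors, 0.0267 with upper-quartile factors, 0.0049 with DESeq2, 0.0553 with no filter and 0.0083 with 10 counts in every library, and at -0.0450 to 0.0906 with libraries left out. Lif was at 0.0013, 0.0282, 0.0011, 0.0550 and 0.0077 in the same order, and at -0.2688 to 0.2937 with libraries left out. With libraries left out Il31ra was at -0.2078 to 0.0663, Cxcl1 at -0.0657 to 0.9704 and Il17ra at -0.4041 to 0.7430, and Il17ra was at -0.2325 with the replicate block. The cause was not tested.

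With the replicate number as a block the same 19 members were called, and 3027 genes in all. Deviations from the group means correlated between same-numbered libraries at 0.062 to 0.148, not all above 0.1. Between libraries of different numbers they correlated at -0.156 to 0.078. Mature replicates 1, 3 and 4 each correlated best with the LP library of their own number. Mature replicate 2 correlated best with LP replicate 1 (0.078, against 0.062 with LP replicate 2). Seen from the LP side, each LP library correlated best with the mature library of its own number. The shared sample number of each LP and mature library is not explained in the labels. Whether the numbers mark 1 animal or 1 preparation is therefore not known. Depth limits the 56 members that were not tested.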
